A study of Homo sapiens with 12 samples.

Results

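The 10 genes described here, GAS5, SNHG1, SNHG5, SNHG6, SNHG8, SNHG12, SNHG15, SNHG16, SNHG29 and ZFAS1, are small nucleolar RNA (snoRNA) host genes that are known or classed as having a 5′ terminal oligopyrimidine (TOP) start. They were taken by name from the 59251 genes of the count table, and all 10 passed the expression filter that kept 13318 genes. RNA-Seq was performed on HL60 cells, an established human acute myeloid leukemia line, with 3 libraries per group and 12 in all. The groups were non-treated cells and cells kept for 48 h in all-trans retinoic acid (ATRA, 1 µM), in palbociclib, an inhibitor of the cell cycle kinases CDK4 and CDK6 (CDK4/6i, 1 µM), or in the 2 drugs together at these doses (CDK4/6i+ATRA). Each library is labelled as a biological replicate and the study speaks of 3 independent experiments, all on 1 cell line, whose spread the p-values measure.

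A snoRNA host gene carries snoRNAs in its introns. Splicing and trimming release the snoRNAs, which guide 2′-O-methylation (C/D box) or pseudouridylation (H/ACA box) of ribosomal RNA, while the spliced exons become a separate transcript that is often noncoding. A TOP start is a C followed by a run of pyrimidines, as in the mRNAs of ribosomal proteins, whose translation depends on mTOR and LARP1, and spliced hosts with short reading frames are known to be broken down by nonsense-mediated decay (NMD) as they are translated. GAS5, the growth arrest-specific transcript, is the best known of these genes and was named for its accumulation in growth-arrested cells.

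The start windows show how far the TOP class can be read from annotation. RefSeq promoter sequences (GRCh38.p14) were matched by symbol for GAS5, SNHG1, SNHG5, SNHG8, SNHG12, SNHG16, SNHG29 and ZFAS1, 8 of the 10, and not for SNHG6 and SNHG15. Each sequence below runs 5′ to 3′ from 30 bases before the annotated start to the 30th base of the transcript, with in capitals a stretch made of a C and at least 4 further pyrimidines. It is marked from the annotated start where the start is such a C, and otherwise from the first C of the nearest such run whose first C lies within 20 bases.
GAS5: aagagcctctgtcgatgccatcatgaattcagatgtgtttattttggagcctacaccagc
SNHG1: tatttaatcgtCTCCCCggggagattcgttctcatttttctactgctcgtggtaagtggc
SNHG5: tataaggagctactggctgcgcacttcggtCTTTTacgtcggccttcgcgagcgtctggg
SNHG8: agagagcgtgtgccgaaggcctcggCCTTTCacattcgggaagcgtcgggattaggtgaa
SNHG12: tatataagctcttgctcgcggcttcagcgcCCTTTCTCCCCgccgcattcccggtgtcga
SNHG16: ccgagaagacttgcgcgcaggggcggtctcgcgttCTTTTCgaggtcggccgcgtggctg
SNHG29: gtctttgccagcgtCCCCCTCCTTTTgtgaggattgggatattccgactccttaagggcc
ZFAS1: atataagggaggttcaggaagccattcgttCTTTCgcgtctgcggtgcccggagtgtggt

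The windows lie at chr1:173869016-173869075 (GAS5), chr11:62855856-62855915 (SNHG1), chr6:85678704-85678763 (SNHG5) and chr1:28581844-28581903 (SNHG12) on the minus strand. On the plus strand they lie at chr4:118278732-118278791 (SNHG8), chr17:76557734-76557793 (SNHG16), chr17:16438957-16439016 (SNHG29) and chr20:49278612-49278671 (ZFAS1). The annotated start was itself a C with at least 4 further pyrimidines in SNHG5, SNHG12 (where another C adjoins it upstream) and ZFAS1, 3 of the 8, against 4.01% of 27305 promoters in the RefSeq table and 66.2% of 68 promoters of cytosolic ribosomal protein genes. Such a stretch, with its first C at the start or within 20 bases of it, was found in 7 of the 8, against 49.7% of all promoters and 91.2% of those of ribosomal protein genes. The first C of the run lay 5 bases from the annotated start in SNHG8 and SNHG16 and 16 and 19 bases before it in SNHG29 and SNHG1, and GAS5 had none within 20 bases. For GAS5 the RefSeq start lies 163 bases upstream of the 5′ end of the deposited gene model, for ZFAS1 464 and for SNHG12 1110 bases downstream of it, and for the other 5 both coincide. A match is a description of letters, and the start used in these cells was not measured.

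Counts are given as TMM-scaled CPM (counts scaled to a common library total), and where genes are set against each other as CPM per kb of exon length. Total counts ranged from 12230923 to 18679544 per library, with the 3 CDK4/6i+ATRA libraries the lowest. The TMM factors of these 3 libraries were 0.8404 to 0.8931, against 1.025 to 1.07 in the other 9, and without these factors the median over all tested genes lay at -0.28 to -0.25 (log2) in the comparisons with CDK4/6i+ATRA and at -0.34 for the interaction. Values below are on the TMM scale, where these medians lay between -0.02 and 0.04. Of the 9 myeloid markers, MPO, CD33, SPI1, CEBPA, CSF3R and LYZ were detected, whereas ELANE, AZU1 and PRTN3 were listed at 0 in every library. The gene models of these 3 lie on both a primary chromosome and an alternate contig, unlike those of the 10 hosts and the other 6 markers, and the part of this in their 0 was not tested. Markers of erythroid and epithelial cells did not exceed 2 counts in any library. Among T and B cell markers CD3E was below 3 CPM in every group mean and CD79A had group means of 14.2 to 23.7 CPM, while CD3D, CD2, TRBC2 and MS4A1 were at or near 0. The 9 myeloid markers summed to 7167 to 7512 CPM without treatment, 1061 to 1114 with ATRA, 4239 to 4371 with CDK4/6i and 1180 to 1251 with both. MPO made up most of this sum without treatment, at a mean of 6517 CPM. Its means were 292.8 with ATRA, 3469 with CDK4/6i and 28.0 with both. With both drugs against non-treated cells, 3 of the 6 tested myeloid markers were higher and 2 lower, beside 41.0% and 40.7% of all tested genes. SPI1 went from 301.8 to 855.1 CPM and CSF3R from 38.8 to 116.2, whereas CEBPA fell from 377.1 to 76.4. ITGAM (CD11b), CD38 and CYBB, markers of myeloid differentiation, summed to 138.7 to 144.8 CPM without treatment, 2710 to 2783 with ATRA, 460.2 to 479.2 with CDK4/6i and 3951 to 4111 with both.

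In non-treated cells SNHG29 had the highest level per length (192.6 ± 1.31 CPM per kb, SD, n = 3), followed by GAS5 (165.4 ± 1.65), SNHG6 (103.6 ± 4.48) and ZFAS1 (94.4 ± 1.53). SNHG5, SNHG8, SNHG16, SNHG1 and SNHG15 followed at 75.1, 69.5, 48.3, 41.9 and 38.0 CPM per kb, and SNHG12 was lowest at 3.14 ± 0.50. The libraries of SNHG1 and SNHG15 overlapped, and all other neighbours in this order were apart. With CDK4/6i+ATRA, GAS5 (375.5 ± 24.3) and SNHG29 (335.3 ± 21.4) overlapped at the top, and SNHG16, SNHG15 and SNHG1 lay at 14.8, 13.9 and 13.8 CPM per kb with overlapping libraries. In that group GAS5, SNHG29, ZFAS1, SNHG6, SNHG5 and SNHG8 all lay above the other 4, SNHG8 being the lowest of the 6 at 91.1 ± 7.36 CPM per kb.

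The 10 genes moved in more than 1 way. GAS5, ZFAS1, SNHG29, SNHG5, SNHG6 and SNHG8 had higher mean levels with both drugs than without treatment, whereas SNHG16, SNHG15, SNHG1 and SNHG12 had their lowest means with both drugs. In CPM summed over their exons, GAS5 was 141.1, 139.0 and 141.7 in the non-treated libraries, 122.5, 115.5 and 111.3 with ATRA, 257.9, 251.0 and 244.3 with CDK4/6i and 300.7, 315.4 and 341.5 with both. No library of any group overlapped another group, and the order was ATRA, non-treated, CDK4/6i and CDK4/6i+ATRA. ZFAS1, which hosts the C/D box snoRNAs SNORD12, SNORD12B and SNORD12C, was 96.9, 99.0 and 95.9 without treatment, 91.8, 93.3 and 93.0 with ATRA, 150.5, 146.6 and 143.9 with CDK4/6i and 202.8, 222.2 and 222.6 with both. The ATRA libraries of ZFAS1 lay just under the non-treated ones, and the groups given CDK4/6i were well above.

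SNHG29, host of SNORD49A, SNORD49B and SNORD65, took the most reads of the 10, with 482.7 to 488.5 CPM without treatment, 434.9 to 449.7 with ATRA, 625.2 to 666.1 with CDK4/6i and 786.7 to 893.7 with both. SNHG5, host of SNORD50A and SNORD50B, was 36.4 to 39.5, 32.5 to 33.2, 45.6 to 48.2 and 64.7 to 67.9 CPM in the same order of groups. Both genes therefore followed the order of GAS5, with no overlap between groups. SNHG6, host of SNORD87, was 69.9 to 75.5 without treatment, 58.8 to 68.8 with ATRA, 74.1 to 79.9 with CDK4/6i and 103.2 to 115.9 CPM with both, and its non-treated and CDK4/6i libraries overlapped. SNHG8, host of the H/ACA box snoRNA SNORA24, was 43.3, 43.9 and 41.8 CPM without treatment, 30.8, 27.6 and 30.2 with ATRA, 66.4, 68.5 and 69.2 with CDK4/6i and 54.4, 61.6 and 53.1 with both. SNHG8 was thus the only one of these 6 that peaked with CDK4/6i alone.

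SNHG16, host of SNORD1A, SNORD1B and SNORD1C, was 122.1, 123.2 and 122.4 CPM without treatment, 44.8, 46.9 and 49.5 with ATRA, 147.3, 141.5 and 150.5 with CDK4/6i and 39.6, 37.8 and 35.4 with both. No 2 groups overlapped, and both groups given ATRA lay below both groups without it. SNHG15, host of SNORA9, was 34.3, 36.8 and 40.9 without treatment and 33.3, 34.0 and 33.6 with CDK4/6i, but 13.5, 14.7 and 15.9 with ATRA and 16.0, 12.7 and 12.1 with both. SNHG1, host of SNORD22 and SNORD25 to SNORD31, fell with either drug, from 60.5, 63.5 and 67.5 CPM to 33.0, 40.2 and 37.8 with ATRA and 34.6, 43.5 and 38.6 with CDK4/6i, and was 23.6, 20.1 and 19.4 with both. The single-drug libraries of SNHG1 overlapped each other and lay between the other 2 groups. SNHG12, host of SNORA16A, SNORA44, SNORA61 and SNORD99, was the least expressed, with 5.47 to 7.49, 4.68 to 7.11, 3.47 to 5.50 and 2.76 to 4.58 CPM in the same order, resting on 31 to 133 counts per library. In bulk RNA, fewer cells with a transcript and less of it per cell cannot be told apart.

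**Figure D1:**
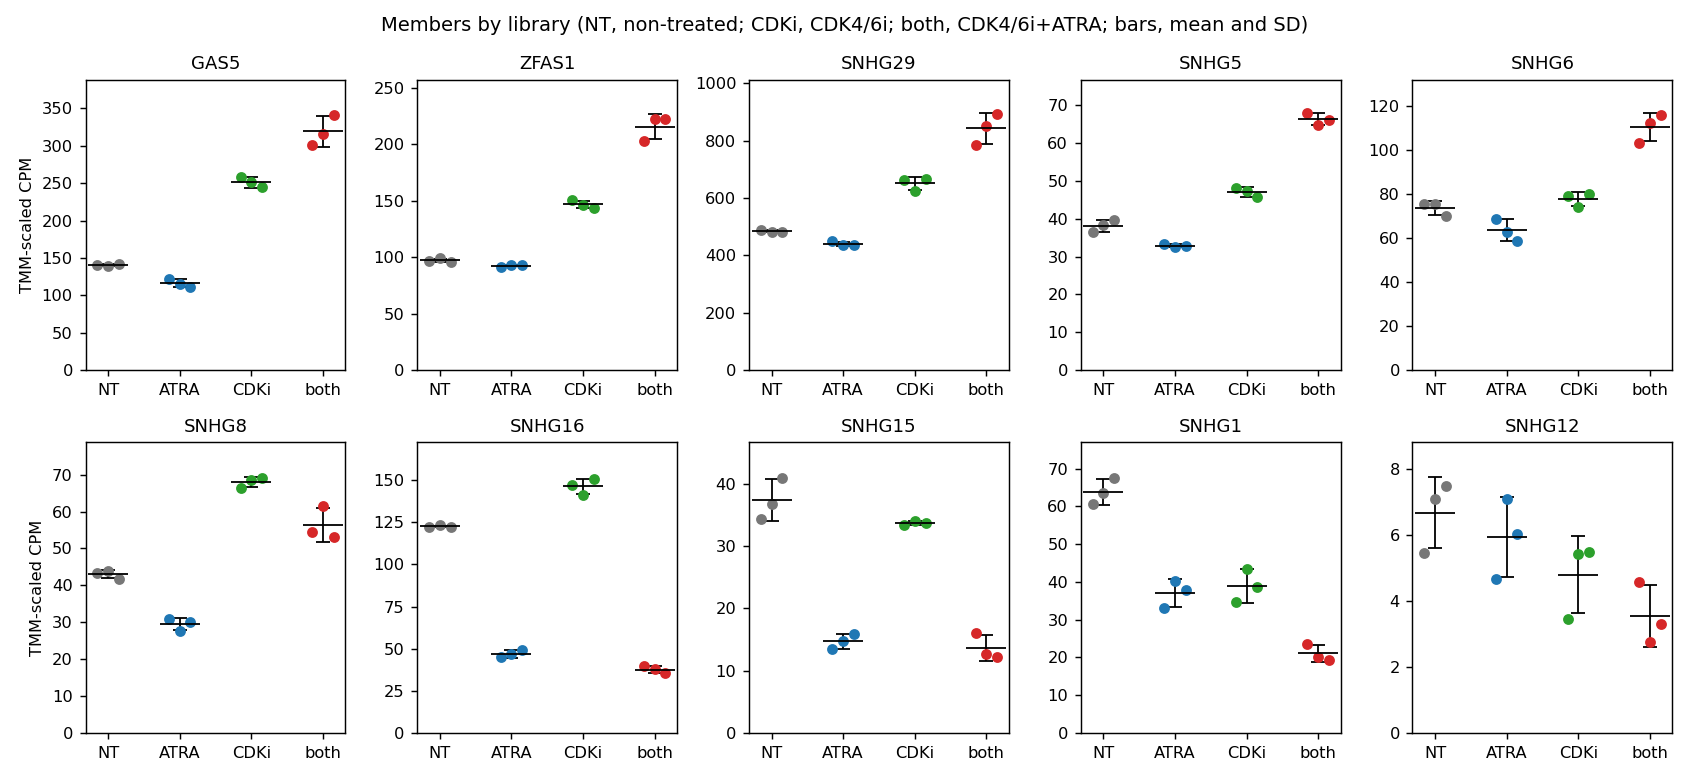
TMM-scaled CPM of each gene (y axis, from 0) in the 12 libraries by group (x axis; NT, non-treated; CDKi, CDK4/6i; both, CDK4/6i+ATRA), with points for libraries and bars for the mean and SD of 3. GAS5, ZFAS1, SNHG29, SNHG5 and SNHG6 were highest with both drugs, SNHG8 with CDK4/6i alone, and SNHG16 and SNHG15 were low in both groups given ATRA.

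With ATRA against non-treated cells 8 of the 10 genes were lower, none was higher, and SNHG12 and ZFAS1 were not called, with a median log2 fold change of -0.24 (all tested genes, -0.03). Of all tested genes 32.1% were called higher and 35.5% lower (edgeR quasi-likelihood F test, Benjamini-Hochberg adjusted p under 0.05). SNHG16 fell to 0.384-fold (log2 -1.38 ± 0.05 SE, edgeR adjusted p = 4e-30) and SNHG15 to 0.394-fold (-1.34 ± 0.08, edgeR adjusted p = 5.9e-20). SNHG1 fell to 0.581-fold and SNHG8 to 0.687-fold. The other 4 calls were of 0.827 to 0.908-fold (GAS5, SNHG5, SNHG6 and SNHG29), and ZFAS1 was at 0.953-fold (95% interval of log2, -0.16 to 0.02).

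With CDK4/6i against non-treated cells 6 of the 10 were higher, 2 were lower and 2 were not called, with a median of 0.28 (all tested genes, 0.02). The background was 28.3% called higher and 27.9% lower. GAS5 rose 1.79-fold (log2 0.84 ± 0.04 SE, edgeR adjusted p = 3.3e-23), SNHG8 1.58-fold, ZFAS1 1.51-fold and SNHG29 1.34-fold. SNHG5 (1.23-fold) and SNHG16 (1.19-fold) also rose. SNHG1 fell to 0.607-fold (-0.72 ± 0.07, edgeR adjusted p = 5.3e-13), while the call of SNHG12 (0.713-fold, edgeR adjusted p = 0.017) was lost without non-treated replicate 2 or 3 or without CDK4/6i replicate 1, at adjusted p of 0.053, 0.091 and 0.17. SNHG6 (1.06-fold, edgeR adjusted p = 0.20) and SNHG15 (0.900-fold, edgeR adjusted p = 0.074) did not pass, and SNHG15 passed in a fit of only the groups compared (adjusted p = 0.041) and without non-treated replicate 1 (0.028).

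Under the combination all 10 differed from non-treated cells, 6 higher and 4 lower, beside 41.0% higher and 40.7% lower among all tested genes. The median was 0.49, against 0.02 for all tested genes. GAS5 rose 2.27-fold (log2 1.18 ± 0.04 SE, edgeR adjusted p = 4.1e-30) and ZFAS1 2.22-fold (1.15 ± 0.04, edgeR adjusted p = 8.1e-30), followed by SNHG29 and SNHG5 (each 1.74-fold), SNHG6 (1.5-fold) and SNHG8 (1.31-fold). SNHG16 fell to 0.306-fold (-1.71 ± 0.05, edgeR adjusted p = 1.1e-32), SNHG1 to 0.329-fold, SNHG15 to 0.363-fold and SNHG12 to 0.530-fold. By library size alone SNHG8 was at 0.13 on the log2 scale and no longer passed (adjusted p = 0.065), and GAS5 was at 0.92 and still called, both having moved with the median of all genes given above.

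Adding CDK4/6i to ATRA raised GAS5 2.74-fold, ZFAS1 2.33-fold, SNHG5 2.02-fold, SNHG29 1.92-fold, SNHG8 1.91-fold and SNHG6 1.74-fold against ATRA alone. SNHG1 (0.567-fold), SNHG12 (0.595-fold) and SNHG16 (0.797-fold) were lower, and SNHG15 was at 0.922-fold (95% interval of log2, -0.33 to 0.09, edgeR adjusted p = 0.32), and was called lower by library size alone (log2 -0.42, adjusted p = 0.001). These 6 higher and 3 lower calls stand beside a background of 36.9% and 32.8%. Against CDK4/6i alone, CDK4/6i+ATRA had 5 higher and 4 lower, with 39.1% and 39.5% among all tested genes. ZFAS1 (1.47-fold), SNHG6 (1.42-fold), SNHG5 (1.41-fold), SNHG29 (1.3-fold) and GAS5 (1.27-fold) rose, while SNHG16 fell to 0.256-fold, SNHG15 to 0.403-fold, SNHG1 to 0.541-fold and SNHG8 to 0.829-fold. SNHG12 was at 0.743-fold (edgeR adjusted p = 0.063) and passed without CDK4/6i replicate 1 (0.0079), without CDK4/6i+ATRA replicate 1 (0.012), without a filter (0.013) and by library size alone (0.0046). By library size alone the rise of GAS5 against CDK4/6i did not pass (log2 0.07, adjusted p = 0.087), and those of ZFAS1, SNHG6, SNHG5 and SNHG29 shrank to 0.28, 0.23, 0.22 and 0.09 on the log2 scale and still passed.

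The interaction, the log2 fold change with both drugs minus the sum of the single-drug changes, was higher than 0 in 6 genes and lower in 1, beside 24.5% and 27.0% of all tested genes. It was largest for SNHG6 (0.72 ± 0.07 SE, edgeR adjusted p = 1e-11), a gene that was not called with CDK4/6i alone and fell with ATRA. SNHG5 (0.71 ± 0.08), ZFAS1 (0.62 ± 0.06), GAS5 (0.62 ± 0.06) and SNHG29 (0.51 ± 0.06) had interactions of similar size, each with ATRA alone at or below the non-treated level. By library size alone these 5 were smaller but still called, at 0.40 for SNHG6, 0.39 for SNHG5, 0.30 for ZFAS1 and GAS5 and 0.19 for SNHG29. SNHG8 was at 0.27 ± 0.09 (edgeR adjusted p = 0.0064), a call lost without CDK4/6i+ATRA replicate 2 (log2 0.20, adjusted p = 0.061) and without a filter (0.19, adjusted p = 0.16), and a value that turned to -0.05 by library size alone (adjusted p = 0.67). SNHG16 was the one gene called below 0 (-0.59 ± 0.07, edgeR adjusted p = 1.4e-09), rising with CDK4/6i alone and falling further with CDK4/6i on top of ATRA. SNHG1 (-0.10, 95% interval -0.32 to 0.12), SNHG12 (-0.26, -0.81 to 0.29) and SNHG15 (0.04, -0.22 to 0.29) were not called, and SNHG1 was called below 0 by library size alone (-0.42, adjusted p = 0.0039).

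**Figure D2:**
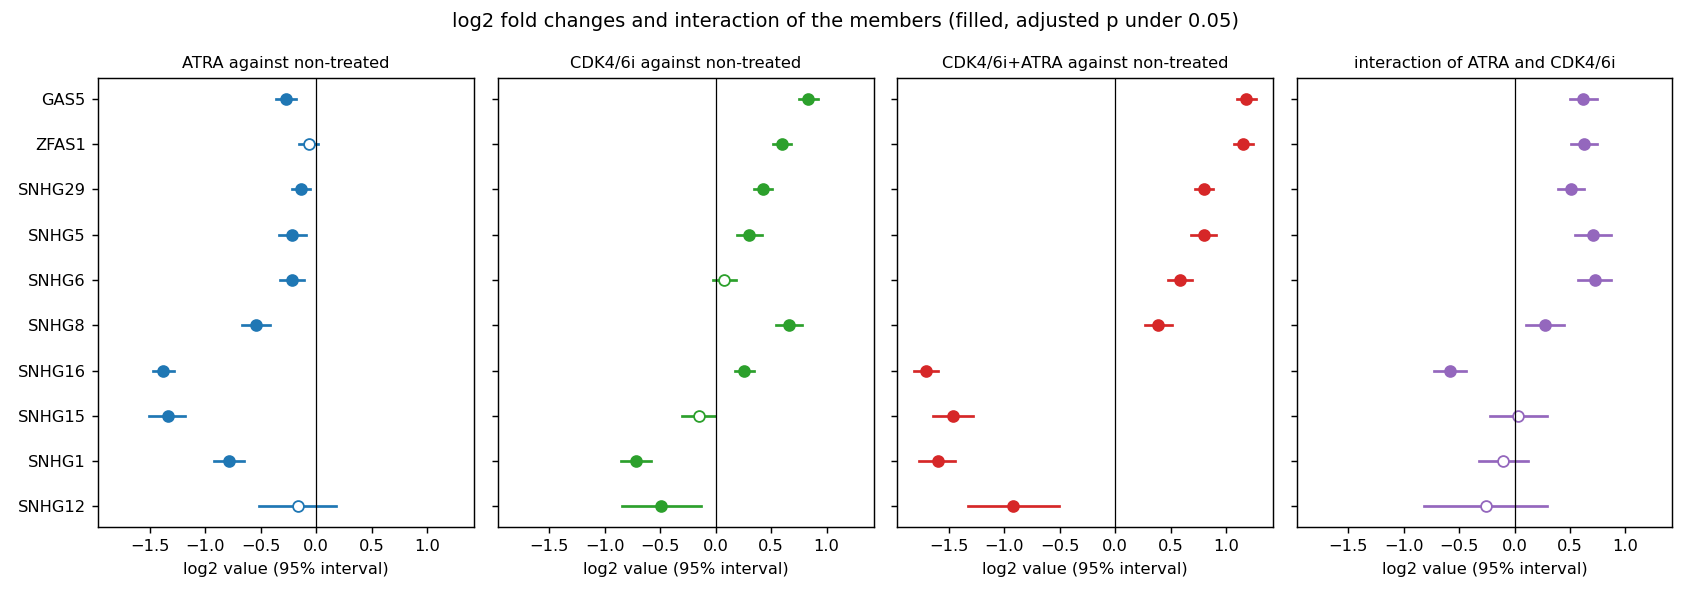
log2 fold change against non-treated cells for ATRA, CDK4/6i and CDK4/6i+ATRA, and the interaction of the drugs (x axis), for each gene (y axis), with lines for 95% intervals and filled points for adjusted p under 0.05. With ATRA all points lie below 0, and with both drugs 6 lie above 0 and 4 below it.

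Across the 12 libraries the log2 CPM of GAS5 followed that of SNHG29 (Pearson r = 0.98), ZFAS1 (0.97), SNHG5 (0.96), SNHG6 (0.88) and SNHG8 (0.86), had little relation to that of SNHG15 (-0.13) or SNHG16 (-0.10) and ran opposite to that of SNHG12 (-0.75) and SNHG1 (-0.68). SNHG1 followed SNHG12 (0.83), SNHG15 (0.80) and SNHG16 (0.74). These 12 points are 4 groups of 3 and share their libraries, depth and scaling, so the coefficients describe the group pattern only. Among 9290 other genes with a mean of at least 5 CPM the 5 most like GAS5 were CCND1 (cyclin D1, r = 0.9964), ATP6V1G1 (a subunit of the vacuolar ATPase, 0.9945), RPL3 (a large-subunit ribosomal protein, 0.9935), ACTG1 (gamma actin, 0.9933) and TRNP (a mitochondrial tRNA, 0.9922). CCND1, a partner of CDK4 and CDK6, was 92.5 CPM in non-treated cells, 77.5 under ATRA, 189.6 under CDK4/6i and 232.0 under the combination.

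The snoRNA genes inside the hosts had their lowest summed level with both drugs, where GAS5 was highest. By the deposited coordinates 37 snoRNA genes lie within the 10 genes on the same strand, 31 of the C/D box and 6 of the H/ACA box type, with 11 in GAS5, 8 in SNHG1, 4 in SNHG12, 3 each in SNHG16, SNHG29 and ZFAS1, 2 in SNHG5 and 1 each in SNHG6, SNHG8 and SNHG15. Their summed level over all 37 was 13.5 to 18.2 CPM without treatment, 8.29 to 9.62 under ATRA, 12.2 to 15.5 under CDK4/6i and 5.37 to 6.51 under both. The groups given ATRA were below both groups without it. All other 507 snoRNA genes summed to 62.6 ± 8.78, 49.2 ± 5.61, 57.9 ± 3.99 and 41.9 ± 3.60 CPM (SD, n = 3) in the same order, which was 0.67-fold with both drugs against 0.404-fold for those inside the 10 hosts, a difference that was not tested.

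GAS5 holds the most of these genes. Its 11 snoRNA genes summed to 96, 96 and 146 counts in non-treated libraries and to 29, 36 and 36 with both drugs, or 6.67 ± 1.35 and 2.95 ± 0.28 CPM (0.442-fold), while the exons of GAS5 went the other way (2.27-fold). With CDK4/6i alone they were at 7.44 ± 0.56 CPM (1.12-fold) and the exons at 1.79-fold. SNORD80, the only snoRNA gene of the 37 with a mean of at least 1 CPM (2.45), lies at chr1:173864833-173864903 in an intron of GAS5 and fell to 0.436-fold with both drugs (log2 -1.20 ± 0.29 SE, edgeR adjusted p = 0.00023). Its interaction was -0.93 ± 0.38 (edgeR adjusted p = 0.037), opposite in sign to that of its host. SNORD80 was the only 1 of the 8 tested snoRNA genes called for the interaction, beside 24.5% higher and 27.0% lower of all tested genes. The other tested snoRNA genes in GAS5 were not called and had both signs (-0.24 to 0.69).

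The snoRNA genes inside ZFAS1 were at 0.367-fold, those in SNHG29 at 0.293-fold and those in SNHG5 at 0.415-fold with both drugs, beside rises of all 3 hosts, but each rested on 0 to 23 counts per library. In raw counts over the 3 libraries of a group, which are smaller with both drugs, those in SNHG6 went from 14 counts without treatment to 1 with both drugs and those in SNHG8 from 28 to 11, while both hosts rose. Those in SNHG15 went from 50 to 16 counts, those in SNHG12 from 65 to 10 and those in SNHG16 from 9 to 5, while these 3 hosts fell. Those in SNHG1 went from 45 to 66 counts per non-treated library to 6 to 19 with both drugs (0.368-fold), beside 0.329-fold for SNHG1 itself. Of the 37, 8 passed the filter and 4 had no count. The reads of such short genes can come from unspliced host RNA or from snoRNAs, which cannot be told apart here, and mature snoRNAs are poorly caught by such libraries. In addition 5 of the 37 overlap exons of their host.

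**Figure D3:**
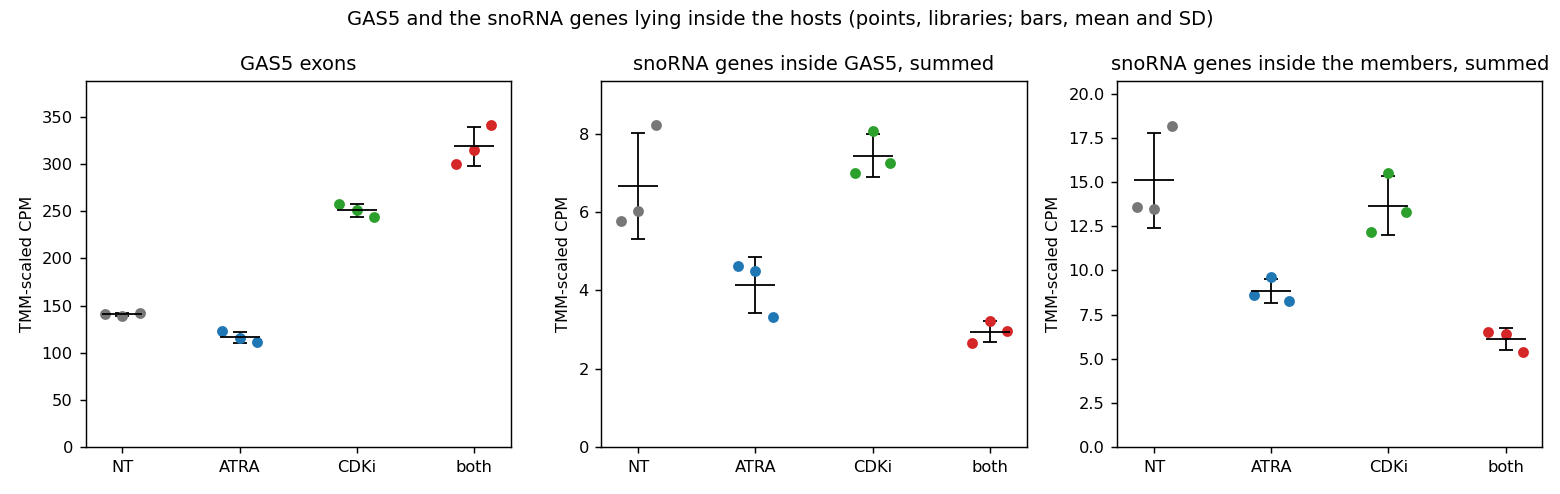
TMM-scaled CPM (y axis, from 0) of the GAS5 exons, of the 11 snoRNA genes inside GAS5 and of the 37 snoRNA genes inside the 10 hosts, by group (x axis; NT, non-treated; CDKi, CDK4/6i; both, CDK4/6i+ATRA), with points for libraries and bars for mean and SD. GAS5 was highest with both drugs, where the sum of its snoRNA genes was lowest.

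Ribosomal protein mRNAs, the classic TOP transcripts, gave a reference within each library that scaling does not touch. The 10 genes together had 1.17 ± 0.03 counts per 100 ribosomal protein counts without treatment, 1.03 ± 0.02 under ATRA, 1.28 ± 0.02 under CDK4/6i and 1.18 ± 0.03 under both (SD, n = 3). In this sum the ATRA and CDK4/6i groups stood apart from the rest, with 1.03, 1.05 and 1.02 in the ATRA libraries and 1.27, 1.27 and 1.31 in those of CDK4/6i. Relative to non-treated cells GAS5 was at 1.48-fold per ribosomal protein count with CDK4/6i and 1.49-fold with both, and ZFAS1 at 1.25-fold and 1.46-fold. With both drugs SNHG29 and SNHG5 were each at 1.15-fold, SNHG6 at 0.988-fold and SNHG8 at 0.866-fold on this scale, and SNHG15, SNHG1 and SNHG16 at 0.242, 0.219 and 0.203-fold. These ratios are given without a test. SNHG29 made up much of the sum, which was 0.659, 0.517, 0.714 and 0.588 without it. The CDK4/6i+ATRA libraries then lay at 0.612, 0.584 and 0.568, below the non-treated ones at 0.639, 0.657 and 0.680, so these 2 groups overlapped in the sum with SNHG29 and not in the sum without it.

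**Figure D4:**
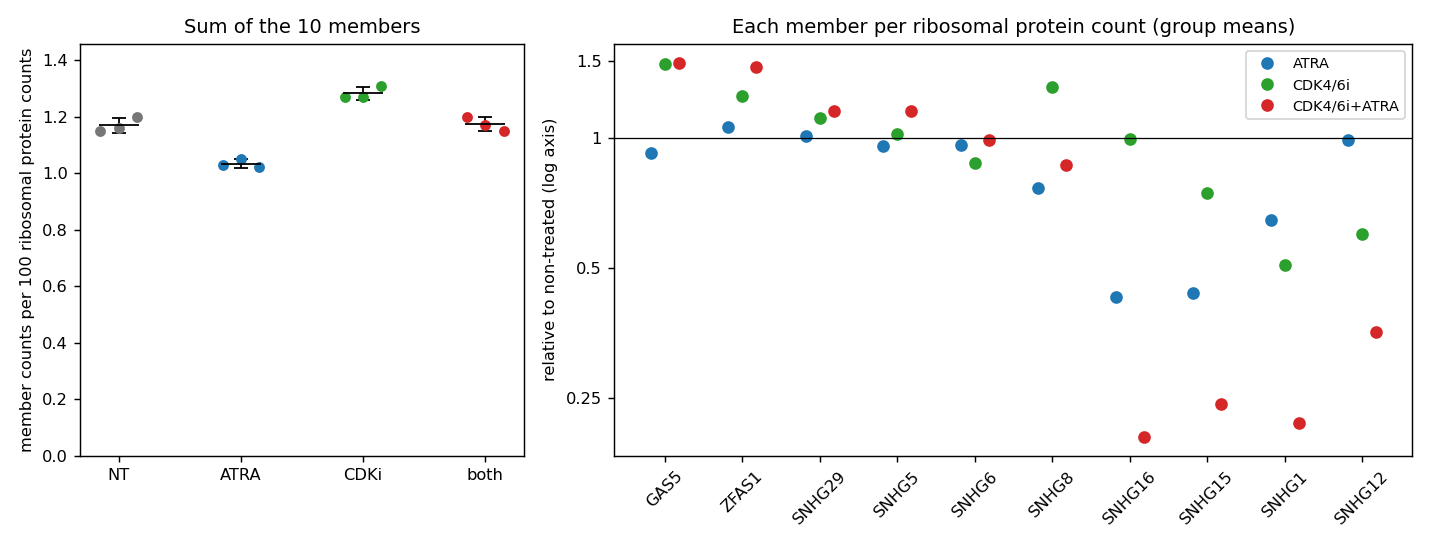
Left, summed counts of the 10 genes per 100 counts of the cytosolic ribosomal protein genes (y axis, from 0) by group, with points for libraries and bars for mean and SD; right, each gene per ribosomal protein count relative to non-treated cells (log axis). With both drugs GAS5 (1.49-fold), ZFAS1 (1.46-fold), SNHG29 and SNHG5 (each 1.15-fold) lie above 1, SNHG6 (0.988-fold) near it, and SNHG16 is lowest (0.203-fold).

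Genes of the same processes were counted from hand-compiled lists, to be read beside all tested genes, of which 41.0% were higher and 40.7% lower with both drugs and 32.1% and 35.5% with ATRA. Of the 85 cytosolic ribosomal protein genes 81 were tested, and with both drugs 73 were higher and 6 lower (median log2 0.60). Among those with a mean of at least 5 CPM, RPS27 (2.07-fold) and RPLP1 (1.83-fold) rose most and RPL22L1 (0.418-fold) and RPL26L1 (0.504-fold), paralogs of standard ribosomal proteins, fell most. With ATRA alone 61 were lower and none higher (median -0.15). Of 41 protein-coding snoRNA hosts, many of them ribosomal protein genes as well, 40 were tested, and 31 were higher and 8 lower with both drugs (median 0.54). TPT1, a TOP mRNA of the translationally controlled tumor protein, rose 2.7-fold and RPL39 1.81-fold, whereas NOP56 (0.158-fold) and NCL, which codes for nucleolin (0.171-fold), fell most.

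Of 20 other noncoding hosts 15 were tested, and with both drugs 9 were lower and 1, SNHG9, was higher (median -0.76). Among those with a mean of at least 5 CPM, SNHG17 was at 0.335-fold and DANCR at 0.368-fold, and EPB41L4A-AS1 (1.01-fold, edgeR adjusted p = 0.92) and SNHG14 (0.795-fold, edgeR adjusted p = 0.078) did not pass. With ATRA 11 of the 15 were lower and none higher. The 10 genes thus had 6 higher with both drugs where these 15 had 1. That difference was not tested, and the members and lists were chosen with earlier results of these data known. SNHG9 rose 3.46-fold with a wide 95% interval (log2 0.695 to 2.89).

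Most of the mRNAs for proteins that form particles with snoRNAs fell. With both drugs the mRNAs of 7 of the 8 core proteins were lower, among them those of the C/D box proteins NOP56 and FBL (fibrillarin, the methyltransferase, 0.527-fold) and the H/ACA box pseudouridine synthase DKC1 (0.223-fold), and NOP10 rose 1.68-fold. Of 15 factors that assemble or process these particles 13 were tested and 12 were lower, led by NOLC1 (0.150-fold) and RUVBL1 (0.170-fold), while PHAX was at 0.999-fold. Of 23 NMD factors 13 were lower and 8 higher (median -0.10), beside the 40.7% and 41.0% of all tested genes. GSPT1, the release factor eRF3a, fell to 0.357-fold and MAGOHB, an exon junction protein, to 0.154-fold, whereas the endonuclease SMG6 rose 4.03-fold and the decapping enzyme DCP2 1.82-fold. Of 20 regulators of TOP mRNAs 13 were lower and 5 higher (median -0.42), beside the same 40.7% and 41.0%. Among those with a mean of at least 5 CPM, EIF4EBP1, the repressor of eIF4E, was at 0.0796-fold and the mTOR subunit MLST8 at 0.264-fold. RICTOR, of the second mTOR complex, and TSC1, an inhibitor of mTOR, were at 1.64 and 1.68-fold. DEPTOR, under that mean, had the lowest log2 value of the list (-5.71). With both drugs the myeloid markers given above moved in different directions (MPO and CEBPA down, SPI1 and CSF3R up), and the differentiation markers rose. The part of these markers in the changes was not tested.

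**Figure D5:**
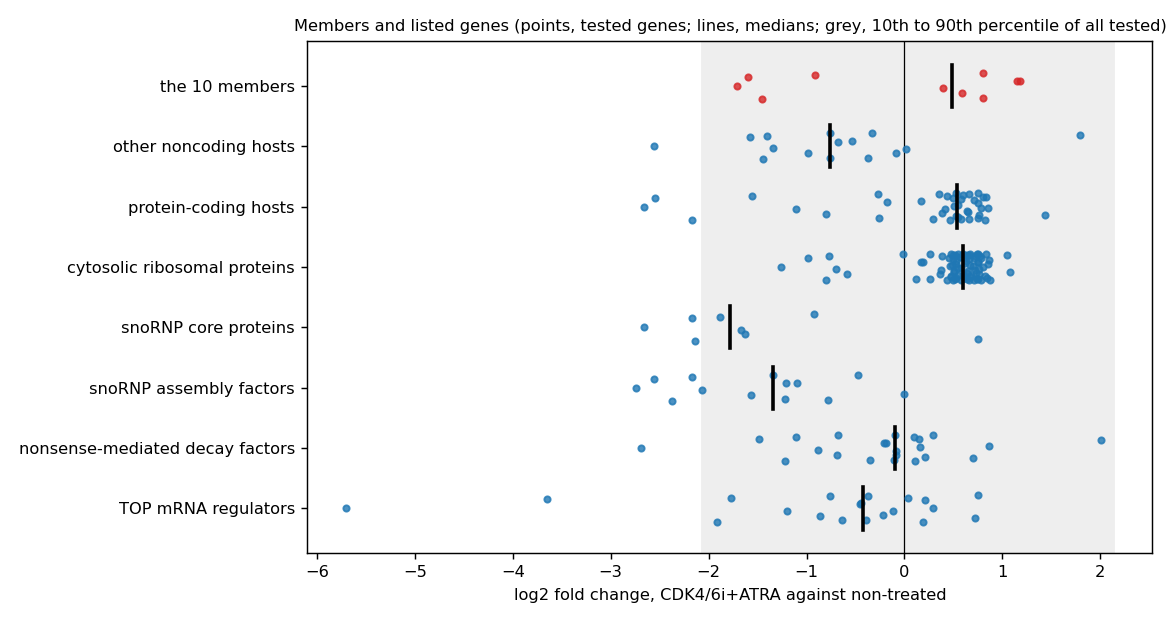
log2 fold change of the combination against non-treated cells (x axis) for the 10 genes (red) and the tested genes of 7 lists (blue), with black lines for medians and grey for the 10th to 90th percentile of all tested genes (-2.07 to 2.14). The 10 genes split into 6 above 0 and 4 below, protein-coding hosts and ribosomal protein genes lie mostly above 0, and snoRNP proteins and their assembly factors mostly below.

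Overlap with genes on the other strand was small for most hosts. SNHG29 shares 452 exon bases with LRRC75A, which had 84 counts in all 12 libraries against 110378 of SNHG29. SNHG6 shares 359 with MCMDC2 (105 against 14848 counts) and GAS5 shares 43 with GAS5-AS1 (42 against 37270). SNHG12 shares 8 exon bases with TRNAU1AP, which had 3400 counts against 1015 of SNHG12, and GAS5 shares none with ZBTB37, which overlaps its introns. Whether reads were counted by strand is not stated, and reads of such partners could not be separated.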

How the data were processed

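RNA-Seq of 12 HL60 libraries was analysed, 3 in each of 4 groups taken from the sample labels. The submitters' processing notes name Trimmomatic 0.33 and STAR 2.7.11a, and the authors aligned to hg38 with the NCBI RefSeq annotation. The authors deposited raw counts, whole numbers per gene without normalization, with exon positions, strand and length. The paper names RSEM as the counter, whereas the layout is that of featureCounts. The library kit was directional, and the strand setting of the counting is not given in the sources used here.

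The counts were used as deposited, filtered with filterByExpr on the 4 groups (13318 genes), scaled by TMM and tested with the quasi-likelihood F test of edgeR 4.0.16 (R 4.3.3) on all 12 libraries, and p-values were adjusted by Benjamini-Hochberg over these genes and called under 0.05. Comparisons with non-treated cells share these controls, and the CDK4/6i+ATRA libraries enter 3 comparisons and the interaction. The common biological coefficient of variation was 3.7%. A floor of 3 counts equals 0.156 to 0.275 CPM per library and takes account of counting error only. Molecular identifiers are not mentioned in the methods of the paper. Libraries of 1 group differed by more than sampling noise. The script was tested on simulated data.

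All 10 genes are named. SnoRNA genes inside them were named at a mean of at least 1 CPM, listed genes as the 2 highest and 2 lowest with CDK4/6i+ATRA against non-treated among those with a mean of at least 5 CPM, and likeness to GAS5 by the Pearson correlation of log2 CPM. SNHG9 and DEPTOR were named after their values were seen. The members and lists were chosen with earlier results of these data known. Sequences are from RefSeq (GRCh38.p14). Other settings were scaling by DESeq2's size factors or by library size alone, requiring 10 counts in every library or filtering nothing, adding the replicate number as a block, testing with DESeq2 1.42.0, fitting only the groups compared, and leaving out each library. The ChIP-Seq data of the study were not used here. Some marker genes are not reported here. Plots were made in python 3.11.15 (matplotlib 3.10.9).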

Additional observations from a re-analysis of the deposited data

Results flagged for a closer look

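The effect of one drug differed with the presence of the other, by the interaction term of the edgeR fit, in 7 of the 10 genes, beside 24.5% of all tested genes above 0 and 27.0% below it. On the log2 scale the term was 0.72 for SNHG6, 0.71 for SNHG5, 0.62 for ZFAS1, 0.62 for GAS5, 0.51 for SNHG29 and 0.27 for SNHG8, and -0.59 for SNHG16. For SNHG6 the effect of CDK4/6i was 1.06-fold without ATRA and 1.74-fold with it, and for SNHG16 it was 1.19-fold without ATRA and 0.797-fold with it. The call of SNHG8 was lost without a filter (adjusted p = 0.16) and without CDK4/6i+ATRA replicate 2 (0.061), and its sign changed by library size alone.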

How the results depend on the processing

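Over 1130 values of single genes under the alternatives, 1109 kept their direction and side of the threshold, 7 kept their direction but no longer passed, 8 kept it and newly passed, and 6 changed sign. The sign changes were of the interaction, and that of SNHG8 also ended its call. By library size alone SNHG8 was at -0.0482 and SNHG15 at -0.28, without a filter SNHG15 was at -0.0513, and leaving out 1 library put SNHG15 between -0.10 and 0.12, SNHG12 between -0.48 and -0.12 and SNHG1 between -0.19 and -0.02. The interaction of SNHG15 passed the threshold in none of these fits. The number of the 10 genes called stayed within 1.5 times under each alternative, in each of the 6 comparisons. Library size alone lowered the share of higher calls among all genes called from 53% to 31.6% (CDK4/6i+ATRA against ATRA), from 49.8% to 36.7% (against CDK4/6i), from 50.2% to 40.5% (against non-treated) and from 47.5% to 18.5% (interaction).

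The replicate numbers did not pair the libraries: the correlation of deviations from the group means was -0.07 to 0.03 between libraries of 1 number (18 pairs, none over 0.1). With the replicate block 8, 8, 10, 9, 9 and 7 of the 10 genes were called in the order of the text, as without it, and no call changed. For the members per 100 ribosomal protein counts, ribosomal protein genes without a snoRNA gene gave 1.97, 1.74, 2.18 and 1.97 in the order non-treated, ATRA, CDK4/6i and CDK4/6i+ATRA, and leaving out SNHG29 gave 0.659, 0.517, 0.714 and 0.588. Depth limits SNHG12 and the snoRNA genes most.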
